A study of Mus musculus with 9 samples.

Results

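Mouse embryonic fibroblasts in which Foxk1 had been knocked down were compared with fibroblasts carrying a control hairpin, gene by gene over the whole array. The 6 samples, of 9 in the study, were chosen by their titles: 3 carried a short hairpin RNA against GFP (shGFP) and 3 a short hairpin RNA against Foxk1 (shFoxk1), all grown in DMEM. GFP is a jellyfish protein without a counterpart in the mouse, so its hairpin has no intended target. The other 3 samples carry the Foxk1 hairpin with Foxk1 added back; they helped to estimate the spread, and counted in the mean level that chose each gene's probe set and ordered genes by level, but are not compared here. The shGFP cells are the only control, so any effect of carrying a hairpin that both groups share is not seen. The labels give neither the sequence nor the number of the hairpins against Foxk1, so an effect of that hairpin on other transcripts cannot be told apart from an effect of less Foxk1. The labels leave out strain, embryo age, sex, passage and whether the cells were clones. Nor do they say whether replicates came from different cultures, so the p-values below rest on a spread that could be technical.

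Foxk1 encodes a forkhead transcription factor, a protein that binds DNA through a winged helix and recognises sequences around the core TAAACA. Together with its close relative Foxk2 it is known mainly as a repressor that brings the Sin3 co-repressor to its targets, including autophagy genes in muscle cells and fibroblasts, and its entry into the nucleus follows nutrient and insulin signalling. Fibroblasts make and remodel connective tissue, and they answer injury and inflammation with chemokines, growth factors and matrix-cutting proteases. A change after a knockdown can be direct or several steps away, and an array of RNA levels does not separate these.

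Values are log2 intensities after RMA, a method that makes the distribution of every array alike, so a value is a level relative to the other genes of the array and a difference of 1 is a 2-fold difference. In cultures measured in bulk, fewer cells that make a transcript and less of it per cell cannot be told apart. Each gene is represented by its brightest probe set. Array medians over the 20672 genes lay between 6.53 and 6.55 in shGFP and between 6.55 and 6.57 in shFoxk1. Arrays of the same group correlated at 0.999 across genes and arrays of different groups at 0.998, both descriptions over genes. The fibroblast markers were bright, with the log2 of their summed level at 16.58 to 16.61 in shGFP and at 16.63 on every shFoxk1 array. Of 12 of them, Fn1 was higher in shFoxk1 and Dcn lower, the latter in some alternatives only. The markers of endothelium, epithelium, skeletal muscle, neurons and glia, fat cells and embryonic stem cells held no called gene. The log2 of the summed level overlapped between the groups for these lists except that of fat cells, at 9.12 to 9.22 in shGFP and 9.26 on every shFoxk1 array. The unadjusted p lay under 0.05 for 1, 0, 2, 3, 2 and 1 of their members in that order. Among 11 macrophage and blood markers, 9 lay below the median level of all genes, and Csf1r (-0.38) and Cd14 (-0.35) were lower in shFoxk1. The log2 of that list's summed level was 10.86 to 10.95 in shGFP and 10.56 to 10.61 in shFoxk1; its part in the results below was not tested.

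The targeted gene checked the labels. Foxk1 read 8.98, 8.89 and 8.95 on the shGFP arrays and 7.75, 7.96 and 7.74 on the shFoxk1 arrays. Every knockdown array lay below every control array, by a mean of 1.12 (SE 0.08, limma adjusted p = 5.18e-05), which left 46.0% of the control signal. Averaged over its 3 probe sets, 2 of them dim, the fall was 0.49, and in all other alternatives it lay between 1.08 and 1.19. Foxk2 read 10.81, 10.84 and 10.82 in shGFP and 10.76, 10.88 and 10.68 in shFoxk1. Its groups overlapped and it was not called (adjusted p = 0.706).

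The knockdown was followed by many small changes and few large ones. Of 20672 genes, limma called 876 (4.24%) at an adjusted p under 0.05, 408 higher (1.97%) and 468 lower (2.26%) in shFoxk1. The median size of a called change was 0.32, or 1.25-fold, with quartiles of 0.26 and 0.43. At least 1.5-fold changes were seen in 94 genes and at least 2-fold changes in 16, 10 higher and 6 lower. The 3 arrays of one group all lay above the 3 of the other in 4554 genes (22.0%), 2394 of them higher in shFoxk1. With each array re-centred on its own median the count was 872 and the split became 295 higher and 577 lower. For 13217 genes (63.9%) the 95% interval of the change lay within 0.25 of 0 on either side, which bounds those changes at 1.19-fold.

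The called genes were not spread evenly over the levels. All genes were split into 5 groups of equal size by mean level. In the dimmest group, at 3.30 to 4.67, 0.242% were called. The shares of the following groups were 0.798%, 4.72%, 9.24% and 6.19%. Falls outnumbered rises at levels of 7.70 to 9.83, by 223 to 159, and rises outnumbered falls at 4.67 to 5.76, by 24 to 9. The brightest group, from 9.84 upwards, had the tightest bounds, with 77.4% of its genes held within 0.25 of 0. In the dimmest group 66.7% were bounded in this way, on a scale that compresses differences near the background.

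**Figure D1:**
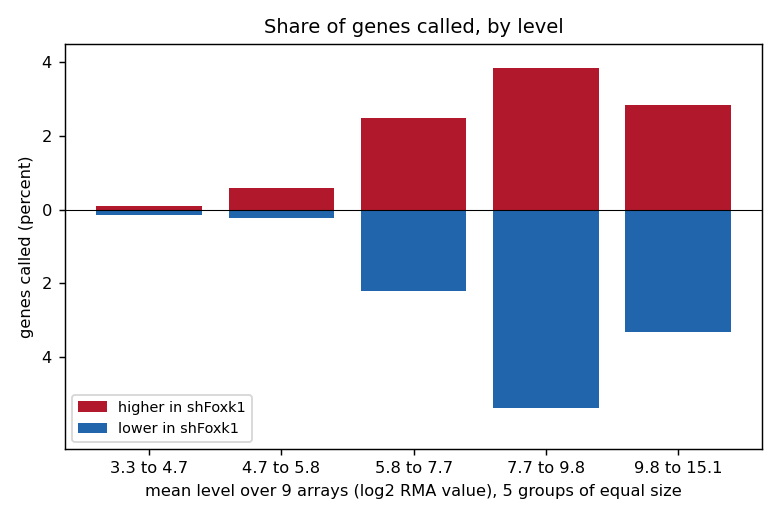
The bars give the percent of genes called higher (red, upwards) and lower (blue, downwards) in shFoxk1 for 5 groups of equal size, ordered by mean log2 RMA level over the 9 arrays. Calls are fewest in the dimmest group (0.242%) and most frequent at levels of 7.70 to 9.83 (9.24%).

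**Figure D2:**
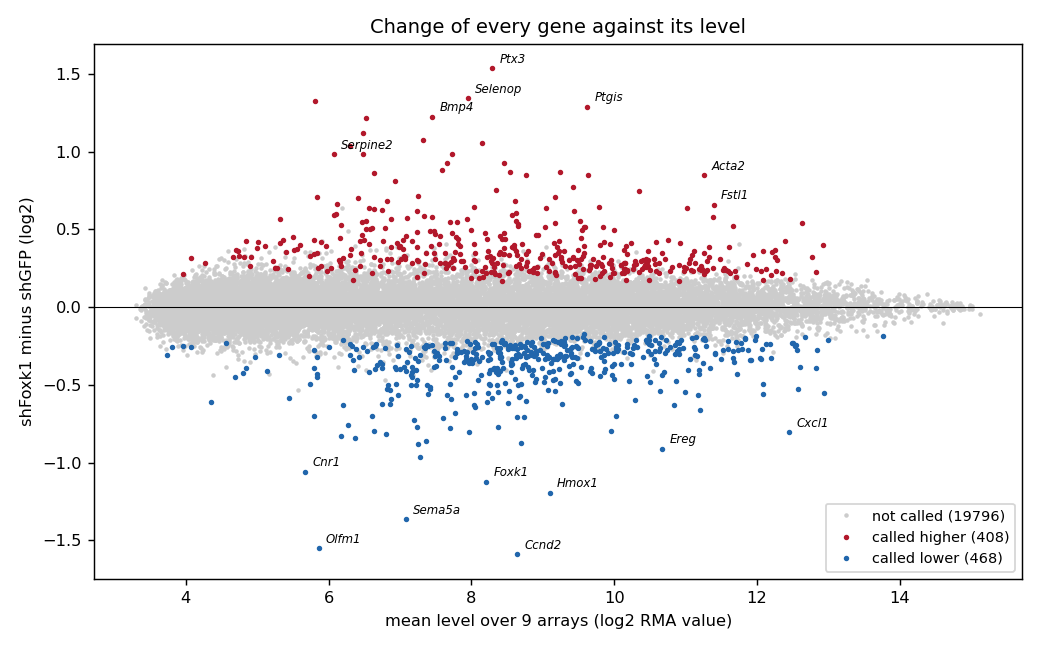
Each point is 1 gene, with its mean log2 RMA level over 9 arrays on the horizontal axis and the difference shFoxk1 minus shGFP in log2 units on the vertical axis. The 408 genes called higher are red and the 468 called lower are blue, and most lie within 0.43 of 0, far inside the named extremes.

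A call is described below as held where it was also made, with the same sign, in every alternative processing that tested the gene, out of 18. This was so for 325 of the 876 genes (37.1%), 145 higher and 180 lower. The genes named below held their call unless a sentence says otherwise. The leading genes are the 40 strongest rises and 40 strongest falls of called genes with separate arrays and a level at or above the median of all genes in the higher group. Separate arrays, seen in 22.0% of all genes, were thus a condition of that choice. Where a leading gene is described below as without overlap, this follows from the rule and is no further result. The smallest rise among them was 0.61 and the smallest fall 0.59, and the calls of 36 rises and 39 falls held.

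Among growth factors, secreted signals and their modulators, both directions occurred. Bmp4, a bone morphogenetic protein, read 6.90, 7.07 and 6.75 in shGFP and 8.04, 8.26 and 8.10 in shFoxk1. Gas6, the ligand of the TAM receptor kinases, read 6.31, 6.31 and 6.39 in shGFP and 6.91, 6.90 and 7.12 in shFoxk1. Both were higher on every knockdown array, and so was Fstl1, a secreted follistatin-like protein (0.66, SE 0.05). The growth factor genes Ereg, for epiregulin, and Areg, for amphiregulin, both ligands of the EGF receptor, were lower. Ereg read 11.30, 11.20 and 11.22 against 10.39, 10.26 and 10.34, and Areg read 8.59, 8.82 and 8.58 against 8.19, 8.25 and 8.09. In neither pair did the groups overlap, a separation seen in 22.0% of all genes. The cytokine gene Lif read 9.24, 9.20 and 9.20 against 8.21, 8.50 and 8.31, 1.83-fold lower (SE 0.07 in log2 units). Also lower were Adm, which encodes the vasodilator peptide adrenomedullin (-0.88), Igfbp3, a carrier of insulin-like growth factors (-0.68), and Cck, the peptide hormone cholecystokinin (-0.62). Mgp, the matrix Gla protein that restrains calcification, fell by 0.82 and the semaphorin gene Sema7a by 0.77.

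Signal transduction genes gave some of the clearest separations. Smad6, an inhibitory SMAD of the BMP pathway, read 5.86, 6.10 and 5.83 in shGFP and 6.89, 7.00 and 6.86 in shFoxk1 (adjusted p = 4.03e-05 with limma). Map3k5, the stress kinase ASK1, read 5.52, 5.74 and 5.76 against 6.86, 6.72 and 6.55. Akap12, a scaffold that anchors protein kinase A, had a mean of 8.03 ± 0.09 (SD, n = 3) against 8.96 ± 0.04. All of these rose on every array, Smad6 and Map3k5 from below the median of all genes. Plcg2, phospholipase C gamma 2, which cuts a membrane phosphoinositide, read 7.93, 7.83 and 7.89 against 7.01, 6.90 and 6.85. Pip4k2a, a kinase of phosphoinositides, read 8.47, 8.40 and 8.31 against 7.62, 7.70 and 7.45. Both phosphoinositide enzymes were lower on every knockdown array, and Pip5k1c, another such kinase, fell by 0.47. Their list of 40 held 4 falls and 1 rise (12.5% against 4.24% of all genes, median -0.04). Without shGFP replicate 1 or 3 or shFoxk1 replicate 1, 3 calls were left. The regulators of G protein signalling parted: Rgs16 read 10.52, 10.43 and 10.45 against 9.71, 9.58 and 9.71, a fall, while Rgs2 read 9.16, 9.07 and 8.95 against 9.76, 9.63 and 9.65, a rise. Ptk7, a receptor of the planar polarity pathway, rose by 0.81, and Frat2, which binds the kinase GSK3 in the Wnt pathway, by 0.68. Dock11, an activator of Cdc42, rose by 0.64. The cannabinoid receptor gene Cnr1 read 6.73, 6.23 and 6.24 against 5.45, 5.25 and 5.32. It was the 1 fall in a list of 36 receptors for lipid mediators and small hormones, where 3 rose (11.1% against 4.24%, median 0.02). The list also took in protease-activated receptors, which lie outside that class. The rises were those of Lpar4 for lysophosphatidic acid (0.48) and of the protease-activated F2rl1 (0.35) and F2r (0.23, not held).

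**Figure D3:**
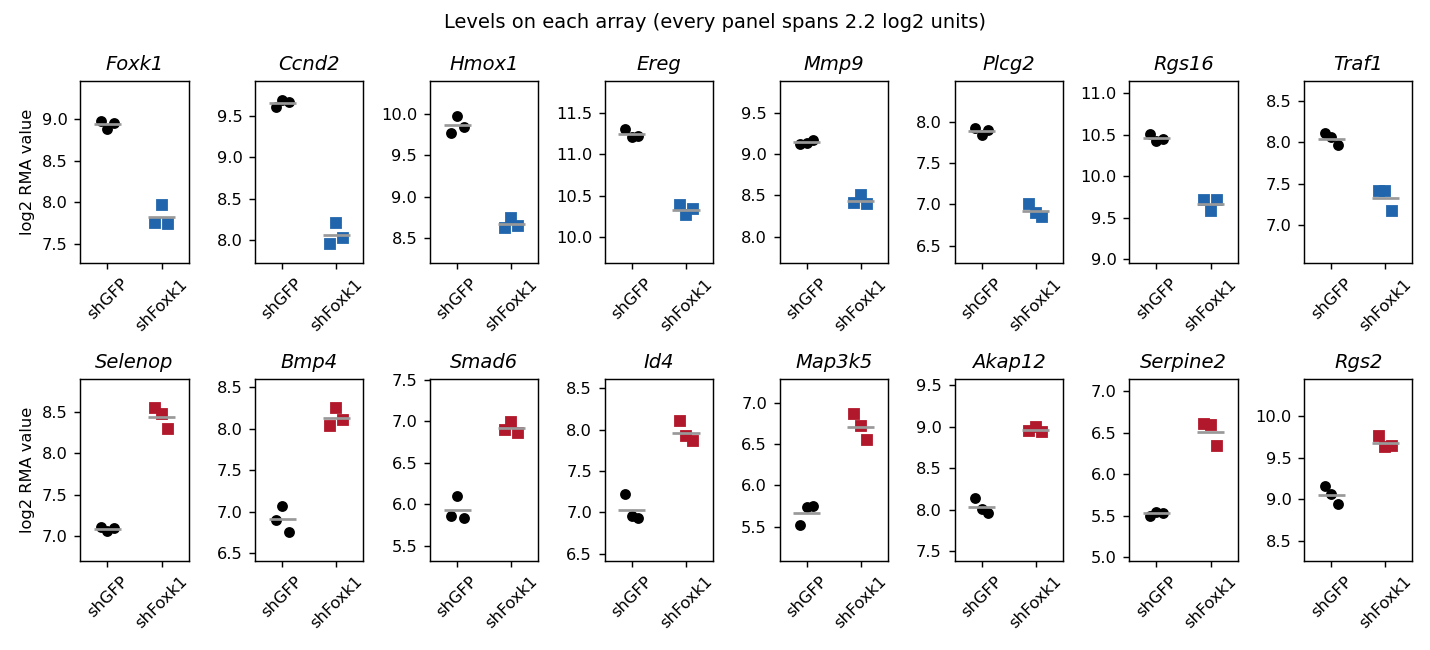
Each panel shows 1 gene, with its log2 RMA value on the 3 shGFP arrays (black circles) and the 3 shFoxk1 arrays (squares, blue where lower and red where higher), and grey bars at the group means. Every panel spans the same 2.2 log2 units, and Foxk1 itself, at upper left, fell by 1.12. The groups overlap in none of the 16, which for the leading genes among them follows from the rule that chose them.

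Transcription regulators that rose included all of the Id genes, which encode partners that keep basic helix-loop-helix factors off DNA. Id4 read 7.22, 6.95 and 6.93 in shGFP and 8.10, 7.92 and 7.86 in shFoxk1, and Id2 read 8.72, 8.85 and 8.55 against 9.34, 9.51 and 9.39. Id3 (0.42) and Id1 (0.40), named after their values were seen, rose as well, and all 4 calls held. In the full list of 53 basic helix-loop-helix factors 5 rose, 3 fell and 45 did not pass (15.1% called against 4.24% of all genes; median change 0.02 against 0.00). The falls that held were those of Bhlhe40, a repressor tied to the clock and to hypoxia (-0.54), and Bhlhe22 (-0.43). Among 64 homeobox factors outside the HOX clusters, Mkx, a tendon regulator (0.63), Meis1, a HOX partner (0.44), and Hhex (0.42) rose and Irx2 fell (-0.34), 59 did not pass, and 7.81% were called. The list's median change was -0.00. The STAT, IRF, NFAT and SMAD factors held 3 rises and 2 falls among 41 (12.2%, median 0.01), with Stat3, the main relay of the LIF and interleukin-6 receptors, lower by 0.31 beside the rise of Smad6. Nfatc4 belongs to the same list and was called higher, but its change was -0.021 once probe sets that can match several transcripts were left out. Runx1, a runt-domain factor of the same list, fell by 0.50. The co-activator gene Mn1 rose by 0.70, Cxxc5, a zinc finger protein of BMP and Wnt signalling, by 0.85, and the epithelial zinc finger gene Bnc1 fell by 0.70. Nova1, a neuronal splicing regulator, read 7.30, 6.69 and 6.66 against 6.17, 6.08 and 5.87. Its shGFP arrays spread over more than their distance to the shFoxk1 arrays, and the fall had an adjusted p of 0.00934.

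Among genes of the extracellular matrix and its proteases there were both rises and falls. The matrix metalloproteinases, zinc enzymes that cut matrix proteins, had 19 measured genes, of which 1 rose, 5 fell and 13 did not pass (31.6% called), and 5 of the 6 calls held. Mmp10 read 7.48, 7.60 and 7.54 in shGFP and 6.82, 6.80 and 6.83 in shFoxk1, and the gelatinase gene Mmp9 read 9.13, 9.13 and 9.17 against 8.41, 8.51 and 8.39. Mmp3, which encodes stromelysin 1, read 8.81, 8.71 and 8.86 against 8.19, 8.21 and 8.12. No knockdown array reached a control array in any of these. Mmp13, a collagenase named after its values were seen, was dim, with means of 4.66 and 4.05, and fell by 0.61. Mmp11 was the gene that rose (0.36, SE 0.05). Among protease inhibitors, Serpine2, protease nexin 1, rose from 5.50, 5.55 and 5.53 to 6.61, 6.60 and 6.34. The list of 33 serpins and plasminogen system genes held 2 rises and 3 falls (15.2%, median change 0.01). It held 2 calls without shFoxk1 replicate 1, and 3 when shGFP replicate 1, shGFP replicate 3 or shFoxk1 replicate 3 was left out. Thbs2, a thrombospondin, read 5.77, 5.73 and 5.58 against 6.82, 6.94 and 6.68, and Fn1, fibronectin, 12.29, 12.13 and 12.29 against 12.78, 12.80 and 12.75. Of 42 collagen genes 2 rose and 3 fell (11.9% called against 4.24% of all genes), and 2 of these calls held. The fibrillar Col5a2 was higher by 0.32, and Col6a3, of the microfibrillar collagen VI, was lower by 0.63. Dpt, dermatopontin, fell by 0.78 and the integrin gene Itga7 by 0.62. In the heparan sulphate list, 3 of 41 fell, none rose (5 with an unadjusted p under 0.05) and 38 did not pass (7.32% against 4.24% of all genes, median -0.02). Those were Ndst3 (-0.57), which adds sulphate to heparan chains, the core protein gene Gpc1 (-0.46), and Chst11 (-0.39), and each call held. Chst11 adds sulphate to chondroitin, so it lies outside the class that names the list. These counts rest on the brightest probe sets. For Sulf2, which trims heparan sulphate, the brightest stood at -0.09 while dimmer probe sets rose by 1.51 and 0.47.

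Most inflammatory ligands, receptors and relays did not pass the test. Chemokine genes were called in both directions, and several TNF family and cytokine receptor genes fell. Cxcl1, a neutrophil chemokine, read 12.98, 12.96 and 13.00 in shGFP and 12.17, 12.19 and 12.17 in shFoxk1. Of the same CXC class, Ppbp rose by 1.32, from a dim mean of 5.02 to 6.34, and Cxcl12 rose by 0.52. Both were named after their values were seen. The Ccl chemokine genes had 18 measured members, of which 3 fell and 1 rose (22.2% called against 4.24% of all genes), and all 4 calls held. Ccl2 read 13.29, 13.35 and 13.28 against 12.68, 12.83 and 12.75, Ccl7 fell by 0.55 and Ccl5 by 0.42, while Ccl9 rose by 0.55. Among 37 TNF ligands and receptors 8 fell, none rose (1 with an unadjusted p under 0.05) and 29 did not pass (21.6%, median -0.04). Traf1, an adaptor of these receptors, was the 1 whose call held, with 8.11, 8.06 and 7.96 against 7.41, 7.41 and 7.17. Tnfrsf21 (-0.58) and Tnfrsf10b (-0.39), death receptors, were among the others. At their smallest over the alternatives their changes were -0.0029 and -0.094. Tnfrsf21 was dim, with means of 5.82 in shGFP and 5.24 in shFoxk1. That list held 2 calls without shFoxk1 replicate 1, 3 without shGFP replicate 2, 4 without shGFP replicate 1 or shFoxk1 replicate 3 and 5 without shGFP replicate 3. Among 40 cytokine receptors 5 fell and 2 rose (17.5%, median 0.00), and 4 were called when shGFP replicate 2 or 3, or shFoxk1 replicate 1 or 3, was left out. The co-receptor gene Il1rap (-0.40), the interleukin-33 receptor gene Il1rl1 (-0.29) and Csf1r (-0.38), the receptor for a macrophage growth factor and also a macrophage marker, were lower. Nfkbie (-0.60), an inhibitor of NF-kB, and the subunit gene Nfkb2 (-0.36) were lower, as was the adhesion receptor gene Vcam1 (-0.42). Of the macrophage and blood markers, Csf1r and Cd14 were lower with these genes and the other 9 did not pass; the part of such cells in the falls was not tested.

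Genes of metabolism, transport and detoxification also divided. Hmox1, heme oxygenase 1, read 9.77, 9.97 and 9.84 in shGFP and 8.62, 8.75 and 8.65 in shFoxk1. Selenop, a secreted selenium carrier, moved the other way, from 7.11, 7.06 and 7.10 to 8.54, 8.47 and 8.29, and Ptgis, prostacyclin synthase, from 8.82, 8.74 and 8.77 to 10.11, 10.12 and 9.97. The groups were far apart in all of these relative to their spread. The glutathione and xenobiotic list held 7 rises and 2 falls among 51 genes (17.6% against 4.24% of all genes, median 0.05). Aldh2, the mitochondrial aldehyde dehydrogenase (0.69), and Aldh6a1 (0.39) rose. The mitochondrial folate enzyme gene Aldh1l2 (-0.49) and Akr1b8 (-0.34) fell. The sphingolipid list held 3 rises and no fall (1 with an unadjusted p under 0.05) among 33 (9.09% against 4.24% of all genes, median -0.00). Among the rises were Plpp3 (0.36), a phosphatase of lipid phosphates, and Kdsr (0.31), an enzyme of ceramide synthesis. The solute carriers, the largest family by name with 355 genes, had 9 rises and 18 falls (7.61% called against 4.24% of all genes). Of those calls 2 rises and 5 falls held, and with the arrays re-centred 6 rose and 21 fell. Of the solute carriers, the cationic amino acid carrier gene Slc7a3 (-0.55) and the zinc exporter gene Slc30a1 (-0.42) fell, and the neutral amino acid carrier gene Slc6a15 rose (0.55). Slco4a1, an organic anion carrier, fell by 0.66 and was the 1 gene called among 15 of the separate Slco family (6.67% against 4.24%). The water channel gene Aqp1 read 9.71, 9.85 and 9.87 against 10.53, 10.66 and 10.49. Gch1, the first enzyme of tetrahydrobiopterin synthesis, fell by 0.71 and the glycogen-binding Stbd1 by 0.80.

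Genes of the cell cycle, survival and cell shape included the largest fall of all. Ccnd2, cyclin D2, which partners the kinases CDK4 and CDK6, read 9.61, 9.69 and 9.66 in shGFP and 7.95, 8.21 and 8.03 in shFoxk1, and all 7 of its probe sets were lower, by 0.58 to 1.59. Pdcd4, an inhibitor of translation initiation, rose from 9.19, 9.19 and 8.98 to 10.04, 9.89 and 9.99, and Heca rose by 0.87. Of 38 apoptosis regulators 5 rose and 2 fell (18.4%, median -0.01), and the caspase gene Casp2 (0.37) held its call. The count was 3 without shGFP replicate 2 or shFoxk1 replicate 1 and 4 without shGFP replicate 3 or with the probe sets of a gene averaged. Fhod3, a formin that builds actin filaments, read 7.95, 7.83 and 7.80 against 6.95, 6.96 and 7.08, and Gsn, the actin-severing gelsolin, fell by 0.33. Tagln, a smooth muscle actin-binding protein, rose by 0.87. Acta2, smooth muscle actin, rose by 0.85, read by probes that several transcripts may share. Its other 2 probe sets were dim, with shGFP means of 4.72 and 4.29, and too near the lowest levels of the array to give a direction, so the call was not held. In the MAP kinase list 3 of 46 rose and 3 fell (13.0%, median -0.00). With Map3k5 rose Map2k6 (0.41), a kinase that activates p38, and Mapk13 (0.35), a p38 kinase, and Mapk6 (-0.34), also called ERK3, and Rps6ka2 (-0.33), a ribosomal S6 kinase, fell. Each of those 5 calls held. The Dusp phosphatases had 24 measured genes, of which 5 fell and none rose (2 with an unadjusted p under 0.05). That is 20.8% called against 4.24% of all genes, and the calls of Dusp3 (-0.50) and Dusp9 (-0.44) held.

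The list with the highest share of called genes was the circadian clock, and its direction was mixed. Of 22 members, 4 rose, 4 fell and 14 did not pass (36.4% against 4.24% of all genes, median 0.05). Bhlhe40 read 9.31, 9.32 and 9.35 in shGFP and 8.86, 8.71 and 8.79 in shFoxk1, and it alone held its call. The output factor gene Hlf (-0.50) and the repressor gene Cry1 (-0.37) were lower, and the repressor gene Nr1d2 (0.23) was higher. Each of these was lost in some alternatives. The count was 2 without shGFP replicate 1 or 2, 3 without shFoxk1 replicate 1, 4 without shGFP replicate 3 and 5 without shFoxk1 replicate 2. The labels give no time of harvest, and its part in this result was not tested.

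**Figure D4:**
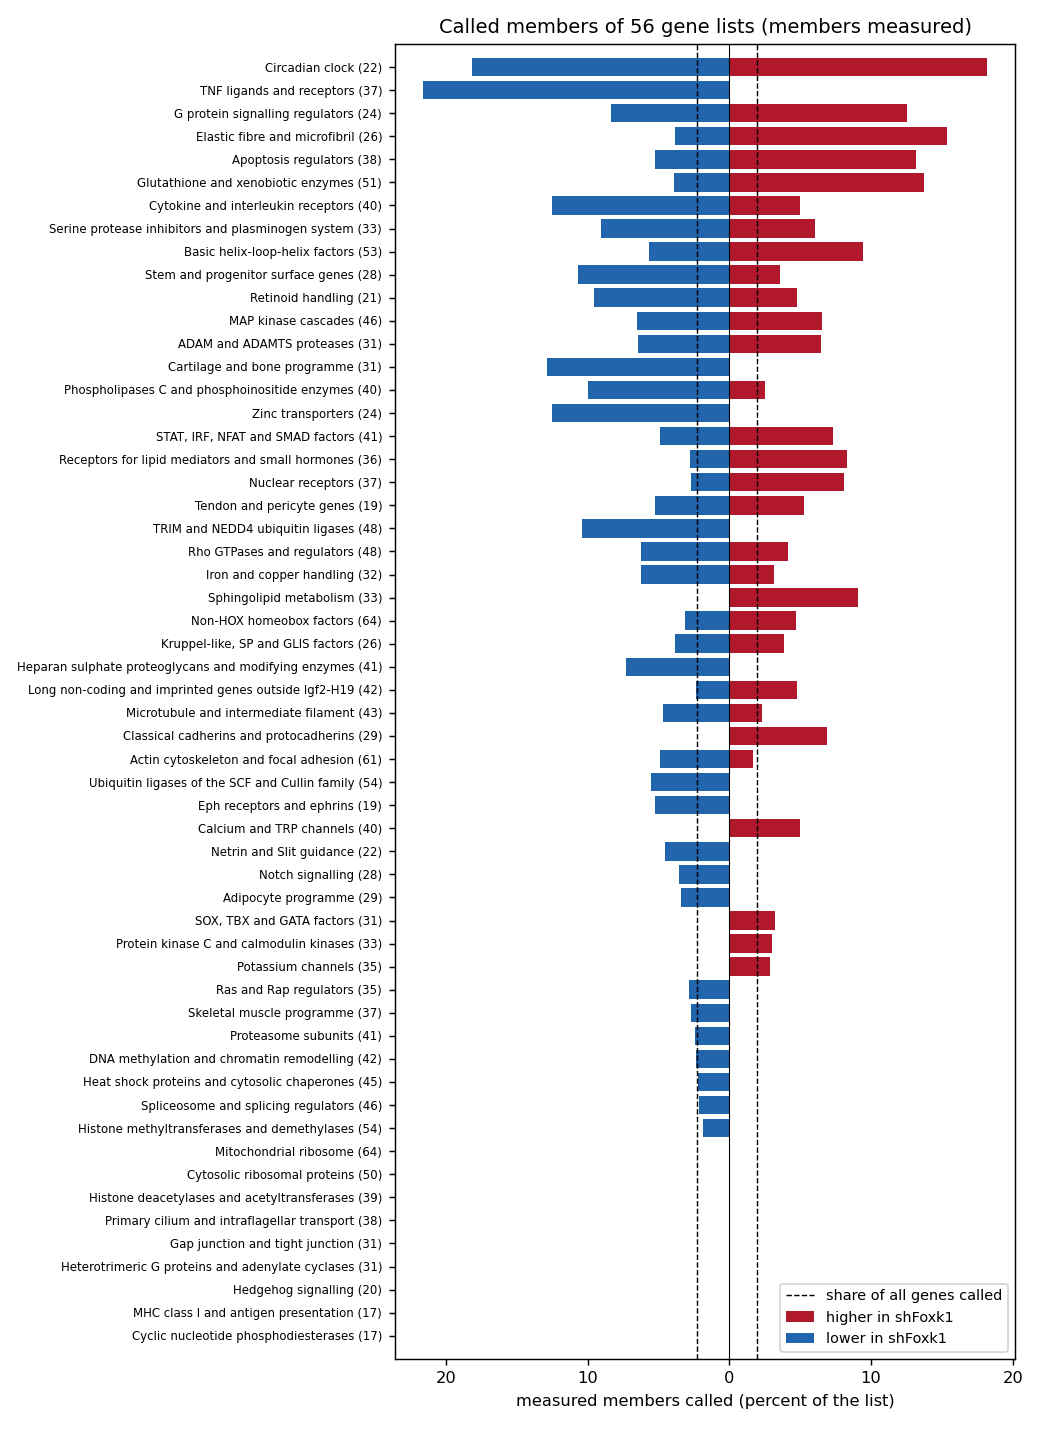
Each row is 1 of the 56 gene lists with its number of measured members, and the bars give the percent of members called higher (red) and lower (blue) in shFoxk1. The dashed lines mark the shares over all genes, 1.97% higher and 2.26% lower; the clock list reaches 36.4% in both directions together, and 9 lists have no bar.

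In the lists of basic cell machinery few genes passed the test. None of 50 measured cytosolic ribosomal protein genes was called with limma (1 with an unadjusted p under 0.05), and 96.0% of them were bounded within 0.25 of 0 at a median level of 14.6. None of 64 mitochondrial ribosome genes was called (7 unadjusted), with 92.2% bounded; with trend and robust variance estimates 5 were. Of 41 proteasome subunits Psmd10 fell (-0.30), of 45 heat shock genes Hspa4l (-0.30) and of 46 splicing genes Nova1, and no member of these lists was called higher (0, 5 and 6 with an unadjusted p under 0.05). Both ribosome lists, the proteasome, splicing and cilium lists and 3 chromatin lists, pooled after their values were seen, held 374 genes with none called higher (32 unadjusted) and 4 lower (1.07%). Their median level was 10.8 and 80.2% were bounded within 0.25 of 0. The histone acetylation, Hedgehog, gap and tight junction, phosphodiesterase, G protein, antigen presentation and cilium lists also held no called gene (10, 4, 6, 4, 7, 3 and 6 with an unadjusted p under 0.05). The alternatives gave these lists up to 4 calls. Of the 56 lists, 35 had a share of called genes above the 4.24% of all genes. That share takes in the dimmest groups by level, with 0.242% and 0.798% called, where the brighter groups stood at 4.72%, 9.24% and 6.19%. The lists were also written with earlier results of these data known, so this count is no result about the lists. In 24 lists the calls went both ways, in 17 only down and in 6 only up. Many of the lists that went only down held just 1 call, so their direction is that of 1 gene. Among them were the Notch, Eph receptor, Ras and Rap, and adipocyte lists, which held 0 calls without shGFP replicate 1.

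Families defined by the stem of the gene symbol gave a similar picture over 122 families of at least 15 genes. No gene was called in 42 of them, which cover 1130 genes (135 with an unadjusted p under 0.05) and include the Atp, Gpr, Mrpl, Ube and Olfr families. The zinc finger genes named Zfp, 345 in number, held 10 rises and 2 falls (3.48%) with a median change of 0.04. That split rests on the centring, since with re-centred arrays 4 rose and 3 fell, and 1 of the 12 calls held, that of Zfp503 (0.57). The Tnfrsf family had 5 falls among 19 genes (26.3% called against 4.24% of all genes), and none of these calls held in all alternatives. The Sema family had 1 rise and 3 falls among 20 (20% called), of which 2 falls held. These were Sema5a, an axon guidance protein, with 7.84, 7.89 and 7.99 against 6.45, 6.56 and 6.62, and Sema7a.

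Called genes that neighbour each other in the genome were examined in the RefSeq order of 18302 genes, 860 of them called. There were 36 adjacent pairs called in the same direction and 19 in opposite directions. The same-direction pairs formed 33 runs, 30 of 2 genes and 3 of 3, holding 69 genes. How many pairs the share of called genes alone would give was not tested, so these counts do not show clustering. Ereg and Areg, and the chemokine genes Ccl2 and Ccl7, are neighbours within their gene families. Neighbours of no shared family that held both calls included Crot, a peroxisomal carnitine transferase (0.54), beside Tmem243 (0.42), and the elongation factor gene Ell2 (-0.53) beside the glutaredoxin gene Glrx (-0.54). Ankrd28 (0.30) and Galnt15 (0.62) were another such pair, as were Nrep (0.72) and Epb41l4a (0.65). Of the 3 runs of 3 genes, that of Ccn4, Ndrg1 and St3gal1 fell (-0.43, -0.44 and -0.33), and only the call of Ccn4 held. No call in the other two runs, one of zinc finger genes and one around Shank3, held.

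Some called genes crossed from below the median of every array to above it, or the reverse. Going up in this way were 17 genes, among them Armcx4, with 5.76, 5.50 and 5.83 in shGFP and 7.04, 6.92 and 6.80 in shFoxk1, Thbs2, Smad6, Mn1, Frat2, Gas6 and Mkx. Lgals9, which encodes galectin 9, read 5.98, 6.23 and 6.05 against 6.83, 7.18 and 6.84. Going down were 9 genes, among them Olfm1, a secreted olfactomedin, with 6.84, 6.86 and 6.95 against 5.47, 5.30 and 5.23, Nova1 and Bnc1. The median is a place in the distribution and not a threshold of expression, so these are descriptions of rank.

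Other probe sets of the same genes gave a reading that the choice of the brightest had not used. For 526 called genes the array carries 961 further probe sets, of which 803 (83.6%) changed in the same direction. Among the 514 of these at or above the median level, 473 (92.0%) did. Among the 17417 dimmer probe sets of all named genes 2.92% were called when every probe set was tested. Of the 961, 214 were themselves called in the same direction when all probe sets were tested, and 0 in the opposite one; at an unadjusted p under 0.05, 10 changed in the opposite direction. A dimmer probe set can read another transcript of the gene, and which transcripts these probe sets read was not tested.

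**Figure D5:**
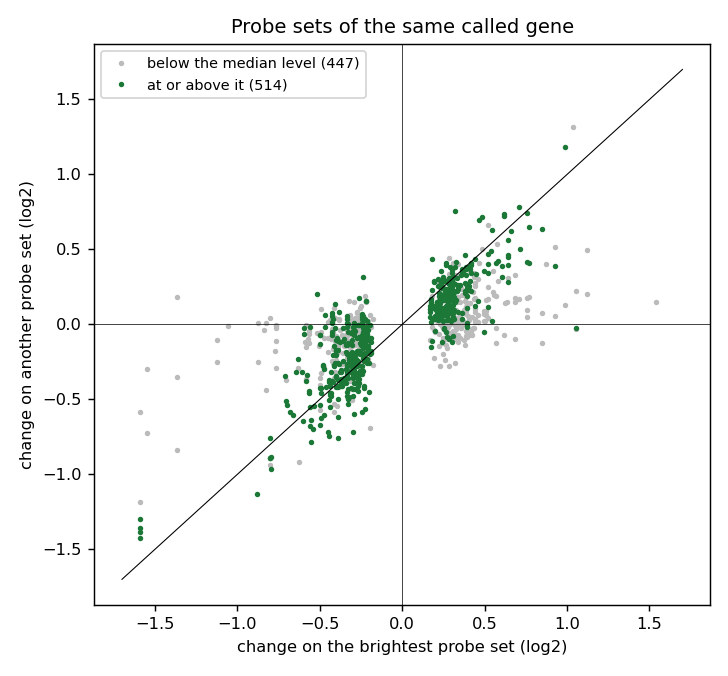
Each point is a further probe set of a called gene, with the change of the gene's brightest probe set on the horizontal axis and its own change on the vertical axis, both shFoxk1 minus shGFP in log2 units; the line marks equal change. Green points, the 514 at or above the median level, follow the sign of the brightest in 92.0% of cases, and grey points are dimmer.

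The promoters of the leading genes were searched for the forkhead core, since it is the kind of sequence that Foxk1 binds. RefSeq windows of build GRCm38.p6 run from 250 bases before to 50 bases after a gene's start, and 54 of the 80 leading genes had one, 26 rises and 28 falls. The motif GTAAACA, on either strand, occurred in the windows of 3 rises and 2 falls. All 5 windows are printed 5′ to 3′ along the gene's strand, with the motif in capitals (TGTTTAC where it reads on the other strand).
Selenop promoter, chr15:3270727-3271026, plus strand: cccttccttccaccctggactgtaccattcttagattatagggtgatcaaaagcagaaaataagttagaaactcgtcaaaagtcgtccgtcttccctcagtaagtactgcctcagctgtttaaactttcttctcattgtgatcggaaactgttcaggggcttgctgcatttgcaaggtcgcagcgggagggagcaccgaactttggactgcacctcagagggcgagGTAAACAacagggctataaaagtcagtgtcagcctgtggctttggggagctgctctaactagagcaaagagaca
Frat2 promoter, chr19:41848083-41848382, minus strand: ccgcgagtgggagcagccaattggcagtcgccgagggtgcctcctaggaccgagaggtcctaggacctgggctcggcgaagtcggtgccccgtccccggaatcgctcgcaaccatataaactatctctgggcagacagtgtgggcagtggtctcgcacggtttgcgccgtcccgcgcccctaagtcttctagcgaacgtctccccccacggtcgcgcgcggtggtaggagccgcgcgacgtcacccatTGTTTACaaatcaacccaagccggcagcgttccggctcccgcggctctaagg
Dock11 promoter, chrX:35888582-35888881, plus strand: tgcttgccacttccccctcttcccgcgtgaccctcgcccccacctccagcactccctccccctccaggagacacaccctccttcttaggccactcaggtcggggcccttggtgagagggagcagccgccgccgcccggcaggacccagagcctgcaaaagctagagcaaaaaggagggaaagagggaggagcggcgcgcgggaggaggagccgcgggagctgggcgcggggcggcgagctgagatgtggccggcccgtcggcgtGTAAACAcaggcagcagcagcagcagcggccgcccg
Mmp10 promoter, chr9:7502092-7502391, plus strand: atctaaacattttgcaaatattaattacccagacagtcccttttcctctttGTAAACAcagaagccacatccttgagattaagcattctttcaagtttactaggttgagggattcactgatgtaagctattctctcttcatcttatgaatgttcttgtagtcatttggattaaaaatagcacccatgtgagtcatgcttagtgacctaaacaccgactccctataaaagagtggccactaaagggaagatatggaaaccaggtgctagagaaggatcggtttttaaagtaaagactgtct
Cck promoter, chr9:121495645-121495944, minus strand: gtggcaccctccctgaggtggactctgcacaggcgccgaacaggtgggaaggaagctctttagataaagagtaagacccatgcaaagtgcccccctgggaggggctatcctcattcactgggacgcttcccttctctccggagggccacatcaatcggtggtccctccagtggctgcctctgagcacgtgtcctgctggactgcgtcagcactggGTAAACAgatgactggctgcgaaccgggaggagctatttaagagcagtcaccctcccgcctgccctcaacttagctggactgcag
The first base of the motif lay 24 bases before the start in Selenop, 2 before in Frat2, 15 after in Dock11, 199 before in Mmp10 and 35 before in Cck. In Frat2 the motif therefore spans the start. Selenop, Frat2 and Dock11 rose in the knockdown, and Mmp10 and Cck, which read 7.15, 6.96 and 7.09 in shGFP and 6.55, 6.19 and 6.60 in shFoxk1, fell. Over all 14517 tested genes with a window, 489 (3.37%) held GTAAACA. The share was 7.69% among genes called higher (24 of 312) and 3.77% among genes called lower (13 of 345). Among genes whose call held it was 5.94% of the rises (6 of 101) and 4.76% of the falls (6 of 126). The related motif ATAAACA was held by 3.77% of all, 4.49% of higher and 3.19% of lower genes. These shares are descriptions without a test. A match is not a bound site, and a window without a match holds only no such letters.

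Of the 6948 probe sets without a gene symbol, 54 were called (0.777%), 38 higher and 16 lower. One of them, 1427585_at, had the largest change on the whole array. It read 5.85, 5.68 and 5.58 in shGFP and 8.43, 8.05 and 8.46 in shFoxk1. That is a rise of 2.61 (SE 0.12, 6.12-fold, limma adjusted p = 4.98e-06 over all probe sets), with the groups far apart, and larger than the change of any named gene.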

How the data were processed

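Total RNA of mouse embryonic fibroblasts was hybridised to 1 array per sample. The authors deposited 1 log2 value per probe set, which the submitters' processing notes credit to RMA in affy. Their deposited tables of comparisons hold p-values, log2 fold changes and a score without a fixed range (t and B), per the file headers; only gene symbols were taken from them. Of 45101 probe sets, 64 were controls and 38089 had 1 symbol. Symbols were renewed through a RefSeq table of GRCm38.p6, and the brightest probe set over 9 arrays stood for each of 20672 genes. limma 3.58.1 in R 4.3.3 fitted a mean per group over all 9 arrays (6 residual degrees of freedom), with eBayes, two-sided tests and Benjamini-Hochberg adjustment over all genes; calls are at 0.05. The number of arrays limits the precision (median SE 0.0642). The fit was tested on simulated data. Members, gene lists and the rule for named genes (the 40 largest rises and falls, and leading called members of lists, families and runs) were chosen with earlier results of these data known, and preference among those for calls that held was given after the values were seen. The replicate numbers were checked as pairs: deviations of same-numbered arrays correlated at 0.129, 0.147 and 0.0705, too weakly to settle whether the numbers mark pairs. Alternatives left out each replicate in turn or changed the arrays fitted, the variance model, the probe sets, the filter or the centring.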

Additional observations from a re-analysis of the deposited data

How the results depend on the processing

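The 876 called genes (408 higher, 468 lower) became 1501 (706 and 795) with a filter on low values, 1530 (738 and 792) with trend and robust variance estimates and 1541 (743 and 798) with array weights. Leaving out 1 replicate gave 460 to 943 genes, 205 to 464 higher and 236 to 494 lower. The count was 557, 460 and 499 without shGFP replicates 1, 2 and 3 and 468 without shFoxk1 replicate 1. With the replicate block 1074 genes were called, though the labels do not say that the numbers pair the samples. Each sample correlated best, if weakly, with its own number, a hint of pairing from the data. With only the 6 arrays compared the count was 778, with all probe sets tested 686 and with re-centred arrays 872. With probe sets of the _x_at and _s_at kinds left out, Nfatc4 turned to -0.021, and Acta2 was left with a dim probe set (-0.13) that gives no direction. Dim probe sets limit what can be seen of low genes, and the precision of small changes rests on 3 arrays a group.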

Other observations

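Dimmer probe sets, which stood for no gene above, were called in 294 cases where the gene's brightest probe set was not, over 271 genes, with 69 higher and 225 lower in shFoxk1. Sulf2, which encodes a sulphatase that trims heparan sulphate, was the largest rise among them. Its probe set 1447602_x_at read 7.83, 7.74 and 7.54 in shGFP and 9.36, 9.22 and 9.07 in shFoxk1, with no overlap. Probe sets of this kind can match several transcripts. It rose by 1.51 (limma adjusted p = 1.96e-05 over all probe sets) and 1430388_a_at by 0.47, while the brightest stood at -0.09. Among the falls were dimmer probe sets of Txnrd1 (-1.24), of Ntng1 (-1.06), a netrin-like guidance gene, and of the tyrosine kinase gene Frk (-0.85). Those of the kinase gene Prkx (-0.79) and of Loxl2 (-0.66), a lysyl oxidase that cross-links collagen, were also lower. The brightest probe set of Frk stood at -0.34 and was not called.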
